A study of Mus musculus with 10 samples.

Results

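Regions of open chromatin at 9 genes of type 1 and type 3 innate lymphoid cells were described in group 2 innate lymphoid cells (ILC2s) of 5 mouse tissues. The genes were Tbx21, Eomes, Ifng, Il12rb1, Il12rb2, Il17a, Il17f, Il22, and Il23r. A region was taken when its centre lay inside a listed gene or when its nearest annotated transcription start site (TSS) belonged to a listed gene, with RefSeq genes on GRCm38.p6, the assembly of mm10. This rule took 22 of the 50039 regions in the count table, and these belonged to 7 of the 9 genes. Ifng had 9 regions, Il12rb1, Il12rb2, and Il17a had 3 each, Tbx21 had 2, and Eomes and Il17f had 1 each, whereas Il22 and Il23r had 0. The cells were ILC2s of wild-type male C57BL/6 mice aged 6 weeks, taken from the bone marrow (BM), the lung, the pancreas, the small intestine (SI), or the large intestine (LI), at 2 libraries per tissue. Each library was made by ATAC-seq, in which a transposase inserts adapters into open chromatin, from 50000 cells pooled from 16 mice (BM, lung, pancreas) or 10 mice (LI, SI). BM cells were gated on ST2 and CD25, LI, lung, and pancreas cells also on CD45 and CD127, and SI cells on CD127, CD45, KLRG1, and a reduced Thy1 level. Cells with the lineage markers CD3, B220, CD11b, FcεRI, or CD11c were gated out in every tissue. A different sorter was used for BM, so gate, sorter, and dissociation cannot be told apart from the tissue in comparisons with BM. LI, lung, and pancreas shared a gate and a sorter, and SI shared their sorter but not their gate. Dissociation was the same for LI and SI. It differed among intestine, lung, and pancreas, and there it cannot be told apart from the tissue.

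ILC2s, ILC1s, and ILC3s are tissue lymphocytes without rearranged antigen receptors, and they differ in their lineage factors and cytokines. ILC1s use T-bet (Tbx21) and produce interferon-gamma (Ifng), and natural killer cells use Eomes in addition, while interleukin 12 acts on these cells through a receptor made of the Il12rb1 and Il12rb2 chains. ILC3s produce IL-17A, IL-17F, and IL-22, and respond to interleukin 23 through Il23r paired with Il12rb1. ILC2s use GATA3 and produce IL-5 and IL-13, and under interleukin 12 or other stimuli some of them can make interferon-gamma or IL-17A, which is why the chromatin of these loci is of interest in ILC2s.

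Accessibility is given as CPM, the count scaled to a common library size, per kb of region after scaling by the trimmed mean of M values (TMM), which allows regions of unequal width to be compared. The 10 libraries held 10282987 to 32797872 counts in regions, and the spread of replicates exceeded counting noise in all 5 tissues, with a chi-square per degree of freedom of 12.8 (lung) to 56.0 (LI). The expected counts used raw library totals without TMM, and PCR reads without molecular identifiers are not independent molecules. These chi-square values thus measure excess over counting error and do not part biological from technical spread. Promoter regions, those centred between 1000 bp before and 100 bp after a TSS, were present for 7 of 8 ILC2 markers, whose summed level was 320 to 536 CPM per kb across libraries, and the nearest region to the remaining marker, Thy1, lay 127 bp from its TSS. Of the ILC2 markers, Il1rl1, Il2ra, Il7r, Klrg1, and Thy1 encode proteins of the sorting gates, so their regions are no separate check of the sorted cells. No promoter region was in the table for 4 of 4 B cell markers, 4 of 4 mast cell markers, and 4 of 4 markers of NK cells and ILC1s. Among the last, Tbx21 and Eomes are also genes described here, so their lack of a promoter region is no separate check of the sorted cells. A region lay 1011 bp from the Eomes TSS, outside the promoter window. In contrast, 1 of 5 myeloid markers (Cd68), 3 of 6 T cell markers, and 1 of 3 epithelial markers (Cdh1) had a promoter region. The Cdh1 promoter region measured 10.3 and 16.2 in pancreas and 4.93 to 10.7 in the other tissues. A region 799 bp from the Epcam TSS, outside the promoter window, measured 26.9 and 13.8 in SI and 6.54 to 15.7 in the other tissues. The Cd68 promoter region measured 29.8 and 31.8 in SI and 14.3 to 21.2 in the other tissues, and the promoter regions of Il1rl1, which encodes ST2, summed to 7.08 and 9.03 in SI and 20.7 to 83.6 elsewhere. The summed level of the T cell markers ranged from 10.9 to 12.4 in BM, 16.6 to 25.2 in LI, 16.8 to 25.9 in lung, 22.0 to 26.2 in pancreas, and 22.1 to 25.7 in SI, and Cd3d, Cd4, and Cd8a had no promoter region. Among 4 ILC3 markers only Cxcr5 had a promoter region, which measured 25.9 and 19.3 in BM, 21 and 22.7 in lung, 20.9 and 39.1 in LI, 10.2 and 12.6 in pancreas, and 23.4 and 26.8 in SI. A share of ILC3s, T cells, or other cells in a sorted pool and a lower level per cell cannot be told apart in these bulk counts, although the lineage gate was set to remove T cells (CD3), B cells (B220), and myeloid cells (CD11b, CD11c). The part of such cells in the results was not tested.

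The 22 regions lay mostly away from the promoters of their genes. A region within 1 kb of a TSS was present for 1 of the 9 genes (Il12rb1), against 16 of 22 genes of an ILC1 list, 18 of 20 genes of an ILC3 list, 19 of 21 genes of an ILC2 list, and 58.2% of 21774 protein-coding genes. Names of regions give the distance of the centre from the TSS of the gene's reference transcript, with a minus sign for upstream. The region Il12rb1 +3.0 kb lay in intron 4 and 474 bp upstream of an alternative TSS. Eomes +1.0 kb lay in exon 1, at 1011 bp from the Eomes TSS, and was also the promoter region of the noncoding gene Gm33408. The nearest region lay 9.8 kb from the Il17a TSS, 11.6 kb from that of Tbx21, 17.9 kb from that of Ifng, 21 kb from that of Il12rb2, and 24.3 kb from that of Il17f. For Il23r, the IL-23 receptor chain, the nearest region lay 173.2 kb from the TSS, and none lay inside the gene. For Il22 the nearest region lay 9.3 kb upstream of the TSS, and its nearest TSS was that of Gm40775. Only uniquely mapped reads were kept by the authors, and 24.6% of the 50-base stretches of Il22 and the 1000 bp upstream recur at the neighbouring copy Iltifb, and the effect of this on mapping was not tested. A gene without a region in the table has no value here, which is not a level of 0.

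The 7 regions with the smallest p-values of the comparison over 5 tissues are shown because the differences described below rest on them. Each sequence is the 300 bp around the region's centre, on the plus strand of GRCm38.p6 (RefSeq), and capitals mark matches, on either strand, to short consensus letters of 5 factor families. The families were T-box, GATA, RUNX, AP-1, and STAT, and the letters of each are spelled out with its count of matches.
Ifng −28.1 kb, chr10:118412828-118413127: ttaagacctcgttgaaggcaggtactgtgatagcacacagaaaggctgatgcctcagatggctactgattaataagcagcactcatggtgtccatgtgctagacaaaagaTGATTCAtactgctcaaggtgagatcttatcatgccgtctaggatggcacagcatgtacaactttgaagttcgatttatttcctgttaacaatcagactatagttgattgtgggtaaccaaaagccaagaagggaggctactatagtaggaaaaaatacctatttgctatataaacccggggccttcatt
Ifng +17.9 kb, chr10:118458771-118459070: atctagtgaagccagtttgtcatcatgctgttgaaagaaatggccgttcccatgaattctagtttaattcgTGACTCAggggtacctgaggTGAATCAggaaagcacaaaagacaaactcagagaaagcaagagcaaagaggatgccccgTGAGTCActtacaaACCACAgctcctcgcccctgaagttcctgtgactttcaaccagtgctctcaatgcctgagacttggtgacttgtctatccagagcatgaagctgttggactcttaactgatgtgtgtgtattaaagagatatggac
Il12rb2 +37.5 kb, chr6:67302033-67302332: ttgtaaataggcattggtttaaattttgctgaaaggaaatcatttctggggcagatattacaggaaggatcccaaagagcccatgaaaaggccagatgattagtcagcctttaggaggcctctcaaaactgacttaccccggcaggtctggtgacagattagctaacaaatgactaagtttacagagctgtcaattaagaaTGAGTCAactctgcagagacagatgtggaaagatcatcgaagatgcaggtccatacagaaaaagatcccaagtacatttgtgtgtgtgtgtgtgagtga
Il17a +9.8 kb, chr1:20740527-20740826: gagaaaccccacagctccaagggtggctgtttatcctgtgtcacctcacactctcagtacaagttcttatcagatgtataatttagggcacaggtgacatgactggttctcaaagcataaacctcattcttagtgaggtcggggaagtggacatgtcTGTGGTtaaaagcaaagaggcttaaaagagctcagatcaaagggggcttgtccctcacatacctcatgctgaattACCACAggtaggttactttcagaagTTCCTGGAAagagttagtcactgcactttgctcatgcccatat
Il17a +13.1 kb, chr1:20743905-20744204: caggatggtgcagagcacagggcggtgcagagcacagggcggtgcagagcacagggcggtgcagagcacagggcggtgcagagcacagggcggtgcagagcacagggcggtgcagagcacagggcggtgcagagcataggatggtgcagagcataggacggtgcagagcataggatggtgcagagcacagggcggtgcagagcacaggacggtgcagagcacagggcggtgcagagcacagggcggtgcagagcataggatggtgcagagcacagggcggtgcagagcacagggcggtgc
Il17a +23.7 kb, chr1:20754462-20754761: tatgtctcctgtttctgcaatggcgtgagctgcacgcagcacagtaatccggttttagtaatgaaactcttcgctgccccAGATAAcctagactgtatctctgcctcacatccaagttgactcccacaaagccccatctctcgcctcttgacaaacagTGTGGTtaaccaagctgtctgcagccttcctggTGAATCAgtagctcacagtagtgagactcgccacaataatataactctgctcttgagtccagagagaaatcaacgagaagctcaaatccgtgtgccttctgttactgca
Il17f +24.3 kb, chr1:20759868-20760167: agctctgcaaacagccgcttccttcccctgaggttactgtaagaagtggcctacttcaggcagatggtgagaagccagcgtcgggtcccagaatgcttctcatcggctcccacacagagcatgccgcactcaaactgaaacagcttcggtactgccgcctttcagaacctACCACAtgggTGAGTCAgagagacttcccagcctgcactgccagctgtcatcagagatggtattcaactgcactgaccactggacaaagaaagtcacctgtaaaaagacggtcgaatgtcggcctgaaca

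In these windows Ifng +17.9 kb held 3 AP-1 matches and 1 RUNX match, and Ifng −28.1 kb and Il12rb2 +37.5 kb held 1 AP-1 match each. Il17a +9.8 kb held 2 RUNX matches and 1 STAT match, Il17a +23.7 kb held 1 match each to GATA, RUNX, and AP-1, and Il17f +24.3 kb held 1 RUNX and 1 AP-1 match. Il17a +13.1 kb held no match and was a tandem repeat, in which 93.6% of bases equalled the base 17 bp further on. Such a high value was reached by 0.146% of all regions, and how reads mapped within the repeat was not tested. Over the 22 regions, the letters TGTGGT, which RUNX factors prefer, occurred in the windows of 9 (40.9%, against 29.1% of all regions). The GATA letters AGATAA occurred in 7 windows (31.8%, against 17.2% of all regions). AP-1, a dimer of Fos and Jun proteins, was searched as TGANTCA and also found in 7 windows (31.8%, against 18.3%). STAT factors, which act under cytokine receptors, were searched as TTCNNNGAA and found in 2 windows (9.09%, against 7.92%). The T-box letters GGTGTGA, for the family of T-bet and Eomes, occurred in 0 windows (0%, against 4.72%). None of these letter strings contains another. When the whole region was searched in place of its central window, the regions with a match numbered 11 for RUNX (42.0% of all regions), 9 for GATA (27.1%), 9 for AP-1 (25.1%), 4 for STAT (14.96%), and 1 for T-box (8.49%). The median GC content was 45.4% in the 22 regions and 49.8% in all regions. Matches are descriptions of letters and not evidence of binding.

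Accessibility at the 22 regions was compared over the 5 tissues with edgeR's quasi-likelihood F test, fitted on the 49981 regions with a count, with Benjamini-Hochberg adjustment over all of them. It called 12 of the 22 regions (54.5%) at an adjusted p under 0.05, against a background of 44.2% of all regions, so the share called was close to that of the table as a whole. The 12 were 6 of 9 Ifng regions, 2 of 3 Il12rb2 regions, 3 of 3 Il17a regions, and the Il17f region. No region of Tbx21, Eomes, or Il12rb1 was called. Of the 12, 10 were called in each of 17 other settings of scaling, filter, tool, and left-out library, and the exceptions were Ifng −34.0 kb and Il12rb2 +50.9 kb. The 22 regions spanned low and high levels, from the 0.61 percentile of all regions (Ifng −40.5 kb) to the 85.8 percentile (Ifng −21.8 kb).

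**Figure D1:**
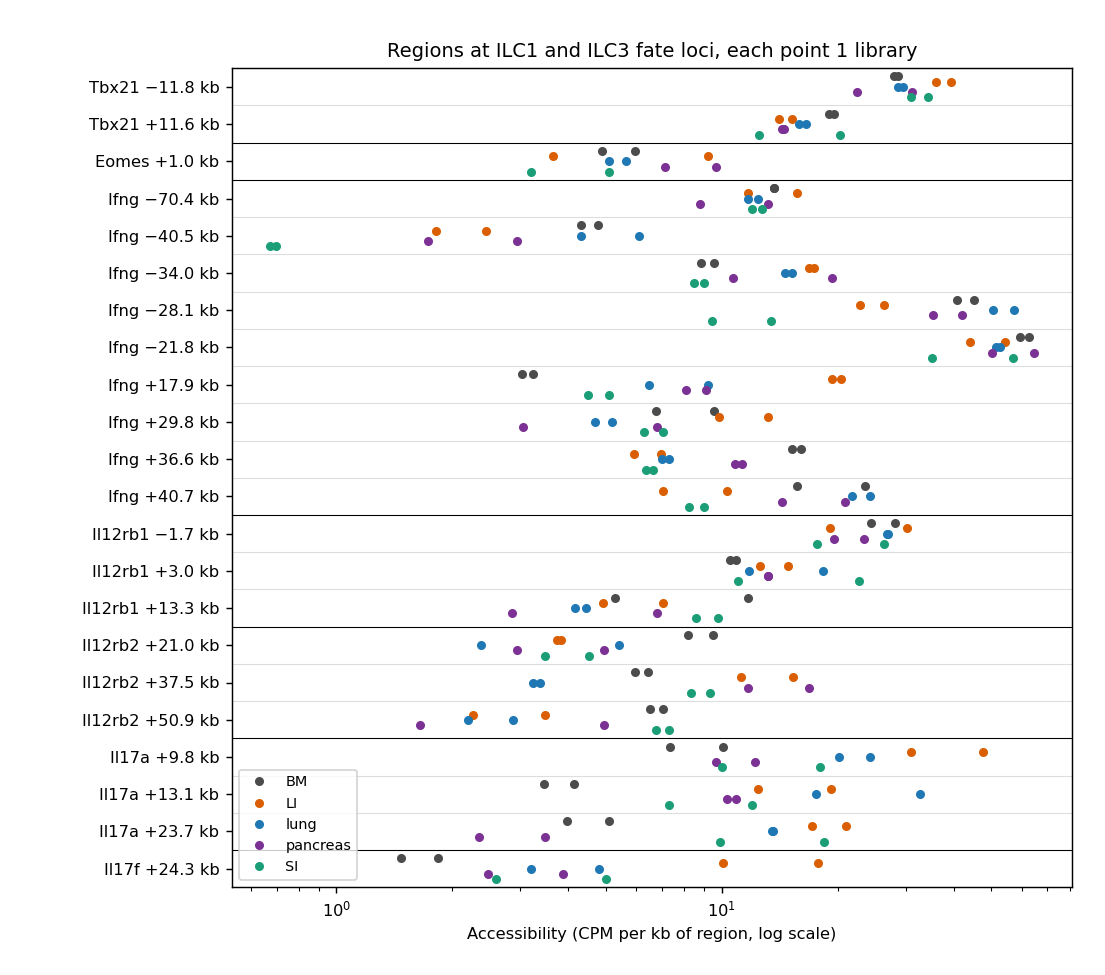
Accessibility of the 22 regions, in CPM per kb of region on a log axis, with 1 point per library and colours for the 5 tissues. Horizontal black lines part the genes. The tissues overlap at Il12rb1 −1.7 kb, whereas LI libraries lie to the right at Il17f +24.3 kb (10.1 and 17.8) and SI libraries to the left at Ifng −40.5 kb (0.674 and 0.697).

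Il12rb1, the chain shared by the IL-12 and IL-23 receptors, had no region that passed the test. Il12rb1 −1.7 kb measured 24.4 and 28.1 in BM, 26.8 and 27.0 in lung, 19.1 and 30.2 in LI, 23.4 and 19.6 in pancreas, and 17.7 and 26.4 in SI, and the tissues overlapped (adjusted p = 0.741, edgeR). Il12rb1 +3.0 kb, next to the alternative TSS, measured 10.5 to 22.7 across the 10 libraries (adjusted p = 0.472, edgeR), and its highest value was SI replicate 2 and its next lung replicate 2 (18.3). Il12rb1 +13.3 kb, beyond the end of the reference transcript but inside the annotated gene, measured 2.86 to 11.7 (adjusted p = 0.133, edgeR), and the BM replicates lay far apart (11.7 and 5.30). For Il12rb1 −1.7 kb the difference of BM and LI was 0.08 log2 units, with a 95% interval of −0.49 to 0.65. This interval allows differences of moderate size, and the test does not show that the tissues were alike.

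Il12rb2, which forms the IL-12 receptor together with Il12rb1, had 1 region that was lowest in lung and another that was highest in BM and SI. Il12rb2 +37.5 kb (chr6:67301928-67302436, intron 6) measured 3.24 and 3.37 in lung, 5.97 and 6.43 in BM, 8.34 and 9.33 in SI, 11.2 and 15.3 in LI, and 11.7 and 16.8 in pancreas (adjusted p = 0.000526, edgeR). The lung libraries were the lowest and overlapped with no other tissue, BM was next, and LI and pancreas overlapped with each other at the top. LI was 4.02-fold higher than lung (log2 2.01 ± 0.33 SE, adjusted p = 0.0011), in all 17 other settings too. Pancreas was 4.26-fold and SI 2.67-fold higher than lung (adjusted p = 0.00236 and 0.00504, edgeR), and both calls were lost without lung replicate 2, where the adjusted p reached 0.0533 and 0.0512. BM was 2.15-fold lower than LI and 2.27-fold lower than pancreas (adjusted p = 0.0159 and 0.0149, edgeR). These calls were lost without BM replicate 1, without BM replicate 2, and after removal of the GC trend, and also without LI replicate 2 or pancreas replicate 2, respectively. All 3 regions lie inside Il12rb2, but their nearest TSS was that of LOC115490490, which lay 943 bp from Il12rb2 +37.5 kb. Which gene these regions belong to is thus ambiguous. Il12rb2 +50.9 kb lies also inside Serbp1, an RNA-binding protein gene. It measured 7.05 and 6.53 in BM and 6.74 and 7.32 in SI, against 2.2 and 2.87 in lung, 3.49 and 2.26 in LI, and 1.65 and 4.96 in pancreas. BM and SI thus lay above the other 3 tissues with no overlap (adjusted p = 0.0318, edgeR), although this call was lost in 7 of 17 settings, without either replicate of BM, lung, or SI or without LI replicate 2. Il12rb2 +21 kb, in intron 2, measured 9.49 and 8.19 in BM and 2.37 to 5.41 in the other tissues. BM lay above them all, yet the F test did not pass (adjusted p = 0.0811, edgeR).

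The lineage factors of ILC1s and NK cells had few regions, and none passed the test. Tbx21 −11.8 kb (chr11:97126903-97127416) measured 28.0 and 28.7 in BM, 28.7 and 29.6 in lung, 39.3 and 36.0 in LI, 31.1 and 22.5 in pancreas, and 30.9 and 34.3 in SI (adjusted p = 0.34, edgeR). Both LI libraries were above all others at this region, which lies at the 74.8 percentile of all regions. Tbx21 +11.6 kb, in intron 1, measured 12.5 to 20.3 across the 10 libraries (adjusted p = 0.589, edgeR), and both its lowest and its highest value came from SI. The difference of BM and LI was −0.40 log2 units at Tbx21 −11.8 kb (95% interval −0.88 to 0.07) and 0.40 at Tbx21 +11.6 kb (−0.15 to 0.95). Eomes +1.0 kb, which has a GC content of 75.4%, measured 5.97 and 4.88 in BM, 5.10 and 5.63 in lung, 9.24 and 3.65 in LI, 9.66 and 7.12 in pancreas, and 5.1 and 3.2 in SI (adjusted p = 0.359, edgeR). The LI replicates spanned most of the range of all tissues, with counts of 53 and 42 at unequal depth.

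Ifng, the interferon-gamma gene and the hallmark cytokine of ILC1s, had regions from −70.4 to +40.7 kb of its TSS, and these changed in different directions in the same tissue. Ifng −28.1 kb (chr10:118412707-118413247) measured 40.8 and 45.1 in BM, 50.7 and 57.4 in lung, 42.0 and 35.4 in pancreas, 22.8 and 26.4 in LI, and 9.45 and 13.4 in SI (adjusted p = 2.55e-05, edgeR). The intestinal libraries lay below all 6 others without overlap, and SI lay below LI. LI and SI together were 2.66-fold lower than the other 3 tissues (log2 −1.41 ± 0.15 SE, adjusted p = 8.19e-06), and SI was 4.70-fold lower than lung (adjusted p = 9.15e-06, edgeR), in all 17 other settings too. The higher Cd68 and lower Il1rl1 levels of SI, given above, moved with this difference, and their part in it was not tested. LI was 2.14-fold higher than SI (adjusted p = 0.00832, edgeR), a call lost without LI replicate 2 (adjusted p = 0.0708). LI was 2.19-fold lower than lung (log2 −1.13, adjusted p = 0.00423, edgeR), a call lost without lung replicate 2 or LI replicate 1 (highest adjusted p = 0.0719).

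Ifng +17.9 kb (chr10:118458647-118459193) had the reverse order in LI. It measured 9.19 and 6.47 in lung, 19.3 and 20.4 in LI, 8.09 and 9.09 in pancreas, 4.50 and 5.10 in SI, and 3.23 and 3.03 in BM (adjusted p = 5.2e-05, edgeR). LI stood above all other libraries, lung and pancreas overlapped, and SI and BM were lowest. LI was 6.33-fold higher than BM (log2 of BM over LI −2.66 ± 0.32 SE, adjusted p = 2.77e-05) and 4.12-fold higher than SI (adjusted p = 0.000733, edgeR), in all 17 other settings too. It was 2.54-fold higher than lung, a call lost without lung replicate 2 or LI replicate 2, and 2.32-fold higher than pancreas, a call lost in 7 of 17 settings, without either replicate of BM, LI, or pancreas or without lung replicate 1. The LI and lung levels were in opposite order at Ifng −28.1 kb and Ifng +17.9 kb, but both calls were lost without lung replicate 2.

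The other Ifng regions were lower in SI, lower in LI and SI, higher in BM, lower in BM than in LI, or not different by the test. Ifng −40.5 kb measured 0.674 and 0.697 in SI, from 7 and 10 counts, against 4.31 and 4.79 in BM, 2.44 and 1.82 in LI, 2.94 and 1.73 in pancreas, and 6.12 and 4.31 in lung (adjusted p = 0.0032, edgeR). SI was 6.53-fold lower than BM (adjusted p = 0.00179) and 7.46-fold lower than lung (adjusted p = 0.00121), in all 17 other settings of edgeR and DESeq2 too, and the SI libraries lay below every other library at this weak region. Ifng +40.7 kb measured 10.3 and 7.04 in LI and 8.24 and 9 in SI, against 15.7 and 23.6 in BM, 21.8 and 24.3 in lung, and 14.3 and 20.9 in pancreas (adjusted p = 0.00122, edgeR). The intestinal libraries were again below the other 6 with no overlap, by 2.32-fold for LI and SI together (adjusted p = 0.000226, edgeR). Ifng +36.6 kb measured 16.1 and 15.2 in BM, 11.3 and 10.8 in pancreas, and 5.91 to 7.29 in the 6 libraries of LI, lung, and SI (adjusted p = 0.00399, edgeR). BM was highest, by 2.44-fold over LI and 2.40-fold over SI in all 17 other settings, and by 2.18-fold over lung, a call lost without BM replicate 1, lung replicate 1, or lung replicate 2. Ifng −34.0 kb, which measured 8.48 to 9.55 in BM and SI and 10.7 to 19.3 in the other tissues, was called (adjusted p = 0.0338, edgeR) but lost in 8 of 17 settings, without either replicate of BM, lung, or LI and with loess or GC scaling. Ifng −21.8 kb, the most accessible of the 22 regions, measured 35.2 to 64.5 and did not pass the test (adjusted p = 0.504, edgeR), and neither did Ifng −70.4 kb (8.76 to 15.7, adjusted p = 0.775) or Ifng +29.8 kb (3.05 to 13.2, adjusted p = 0.06).

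**Figure D2:**
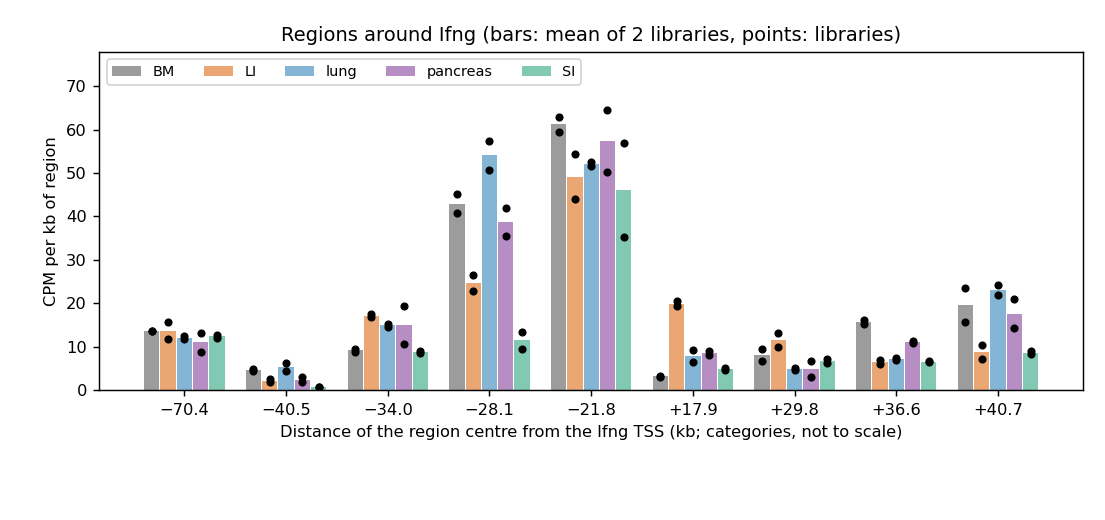
Accessibility at the 9 Ifng regions, ordered by the distance of their centre from the Ifng TSS in kb, as CPM per kb of region. Bars are the mean of 2 libraries and points the libraries. LI and SI are low at −28.1 and +40.7 kb, and LI is high at +17.9 kb (19.3 and 20.4).

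The cytokines of ILC3s, Il17a and Il17f, are neighbours on chromosome 1 and are transcribed toward each other, and all 4 of their regions lay in the interval between them, at 9.8, 13.1, 23.7, and 29.1 kb from the Il17a TSS. All 4 were called by the F test and were lower in BM than in LI, by 4.51-, 4.20-, 4.23-, and 8.45-fold in this order (log2 of BM over LI −2.17 ± 0.32, −2.07 ± 0.37, −2.08 ± 0.35, and −3.08 ± 0.50 SE). The adjusted p of these contrasts was 0.000153, 0.000693, 0.000389, and 0.000293 (edgeR), and each held in all 17 other settings. The order of the other tissues changed along the interval.

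Il17a +9.8 kb (chr1:20740420-20740933) measured 30.9 and 47.6 in LI, then 24.3 and 20.1 in lung, 10.0 and 18.0 in SI, 12.2 and 9.67 in pancreas, and 7.35 and 10.1 in BM (adjusted p = 0.000208, edgeR). LI was highest and lung next, without overlap, and the other 3 tissues overlapped. LI was 3.58-fold higher than pancreas, a call lost without LI replicate 2, pancreas replicate 1, or pancreas replicate 2, and 2.80-fold higher than SI, a call lost without LI replicate 2. Lung was 2.53-fold higher than BM (adjusted p = 0.00658, edgeR), a call lost without BM replicate 1 (adjusted p = 0.0945).

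Il17a +13.1 kb (chr1:20743788-20744321), the tandem repeat, measured 32.7 and 17.6 in lung, 12.4 and 19.2 in LI, 10.9 and 10.3 in pancreas, 7.32 and 12.0 in SI, and 4.13 and 3.45 in BM (adjusted p = 0.000276, edgeR). BM was the lowest, without overlap, and lung and LI overlapped at the top. Lung was 6.60-fold higher than BM (adjusted p = 9.22e-05, edgeR), in all 17 other settings too. Pancreas and SI were 2.81-fold and 2.56-fold higher than BM, calls lost without either BM replicate, and also without pancreas replicate 1 or SI replicate 2, respectively.

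Il17a +23.7 kb (chr1:20754358-20754864) measured 17.2 and 21 in LI, 9.90 and 18.4 in SI, and 13.6 and 13.5 in lung, against 3.97 and 5.09 in BM and 3.49 and 2.34 in pancreas (adjusted p = 9.72e-05, edgeR). The LI, SI, and lung libraries did not overlap with those of BM and pancreas. LI was 6.37-fold and SI 4.71-fold higher than pancreas (adjusted p = 0.00142 and 0.000558, edgeR), and SI was 3.13-fold higher than BM (adjusted p = 0.00216, edgeR), in all 17 other settings too. Lung was 2.99-fold higher than BM, a call lost without BM replicate 1, and 4.51-fold higher than pancreas, a call lost without pancreas replicate 2.

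Il17f +24.3 kb (chr1:20759767-20760267) measured 10.1 and 17.8 in LI, then 3.21 and 4.80 in lung, 2.60 and 5.02 in SI, 2.47 and 3.88 in pancreas, and 1.47 and 1.84 in BM (adjusted p = 0.000509, edgeR). These values rested on 58 and 205 counts in LI and on 15 to 87 counts in the other 8 libraries. LI lay above all others, lung, SI, and pancreas overlapped, and BM was lowest. LI was 3.49-fold higher than lung, 4.54-fold higher than pancreas, and 3.65-fold higher than SI (adjusted p = 0.0158, 0.0211, and 0.017, edgeR). Each of these 3 calls was lost without LI replicate 2, and also without either lung replicate, without either pancreas replicate, or without SI replicate 1, respectively. Of the T cell markers, the promoter regions of Cd3e summed to 6.69 and 6.29 in BM and 4.41 and 7.24 in LI and overlapped, whereas Cd3g (2.55 and 2.66 in BM, 4.54 and 7.37 in LI) and Cd5 (3.13 and 1.93 in BM, 7.65 and 10.6 in LI) were lower in both BM libraries. Cells with CD3 had been gated out, and the part of any remaining T cells in the difference of BM and LI was not tested.

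**Figure D3:**
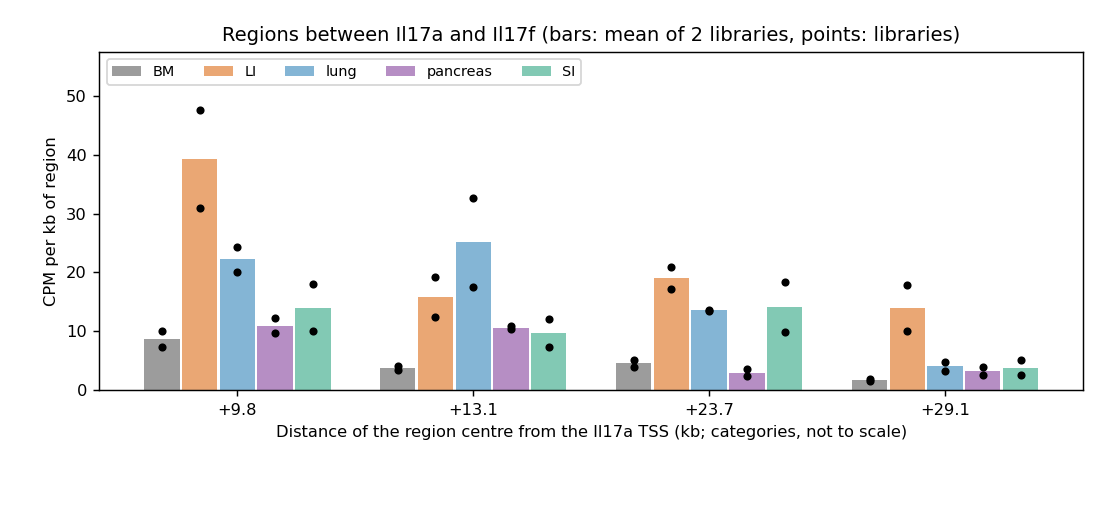
Accessibility at the 4 regions between Il17a and Il17f, ordered by the distance of their centre from the Il17a TSS in kb, as CPM per kb of region. Bars are the mean of 2 libraries and points the libraries. BM is low at each region, LI is high at +9.8 and +29.1 kb, and pancreas is as low as BM at +23.7 kb.

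Counts were also summed over the regions of each gene and compared over tissues by the same F test on 22216 gene sums. It called 4 of the 7 genes (57.1%), against 37.4% of all genes. Il17a summed to 21.8 ± 6.08 (SD, n = 2) in LI, 17.8 ± 3.97 in lung, 10.6 ± 4.04 in SI, 7.29 ± 0.831 in pancreas, and 4.55 ± 0.672 in BM, in CPM per kb (adjusted p = 7.48e-05, edgeR). In this order LI and lung overlapped, as did SI and pancreas, whereas lung and SI and also pancreas and BM did not. The Il17a sum includes the tandem repeat at +13.1 kb, where lung measured 32.7 and 17.6 and LI 12.4 and 19.2. At Il17a +9.8 and +23.7 kb both LI libraries lay above both lung libraries, so the overlap rests on the repeat, whose mapping was not tested. Il17f, with 1 region, was called as well (adjusted p = 0.000635, edgeR). Ifng summed to 18.1 ± 0.328 in lung, 16.9 ± 0.232 in pancreas, 16.4 ± 1.07 in BM, 15.3 ± 1.12 in LI, and 10.3 ± 1.85 in SI (adjusted p = 0.00492, edgeR). Both SI libraries (9 and 11.6) lay below the other 8, and the opposite changes within the locus were averaged in this sum. The call was lost when the nearest TSS was taken over protein-coding genes only, which adds 5 regions to Ifng (adjusted p = 0.194, edgeR). Il12rb2 summed to 2.82 ± 0.439 in lung and to 5.61 to 6.41 as the means of the other tissues (adjusted p = 0.0257, edgeR), with lung below all others, and this call was lost without BM replicate 1, lung replicate 1, or lung replicate 2. Tbx21 (17.8 to 22.1 as tissue means), Il12rb1 (11.5 to 13.4), and Eomes (3.52 to 7.45) were not called (adjusted p = 0.632, 0.845, and 0.31, edgeR).

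The genes whose sums were most like those of the 4 called genes were ranked by Pearson's r of log2 CPM over the 10 libraries, which share depth and tissue with each other, among 21316 genes. These were Cd163l1 and Lpp for Il17a (r = 0.966 for both), Gm42125 (0.957) and Ahr (0.951) for Il17f, and Gm31108 (0.983) and Jak1 (0.982) for Ifng. For Il12rb2 they were LOC115490490, which holds the same 3 regions, and Vmn1r15 (0.951). These values only describe a ranking.

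The 10 pairs of tissues were then compared for all 22 regions, with p-values adjusted over all regions within each pair and not over pairs. BM showed 3 regions higher (background 12.6%) and 7 lower (18.3%) than LI, 2 higher (7.56%) and 4 lower (11.5%) than lung, 0 higher (9.89%) and 3 lower (14.3%) than pancreas, and 4 higher (10.7%) and 2 lower (15.1%) than SI. LI showed 3 higher (8.18%) and 2 lower (2.72%) than lung, 4 higher (2.01%) and 0 lower (1.25%) than pancreas, and 4 higher (6.9%) and 0 lower (1.53%) than SI. Lung showed 2 higher (1.62%) and 1 lower (4.2%) than pancreas, and 4 higher (9.86%) and 2 lower (11.1%) than SI, and pancreas showed 3 higher (12%) and 1 lower (8.45%) than SI. The percentages are the share of all 49981 regions called in the same direction. Of the regions higher in LI than in pancreas, 3 were at Il17a or Il17f and 1 was Ifng +17.9 kb, so 18.2% of the 22 regions were called there beside a background of 2.01%, but the count fell to 1 without LI replicate 2 or either pancreas replicate. Regions called as lower in SI against BM, against lung, or against pancreas were all at Ifng, with the exception of Il17a +13.1 kb, which was lower in SI than in lung.

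LI and SI together were compared with the mean of the other 3 tissues. Accessibility was higher at 5 regions (22.7%, background 14.9%) and lower at 4 (18.2%, background 8.51%). The 5 were Il17a +9.8 kb (1.83-fold), Il17a +23.7 kb (2.89-fold), Il17f +24.3 kb (2.68-fold), Ifng +17.9 kb (1.65-fold), and Il12rb2 +37.5 kb (1.64-fold). The 4 were Ifng −40.5 kb (3.18-fold), Ifng −28.1 kb (2.66-fold), Ifng +40.7 kb (2.32-fold), and Ifng +36.6 kb (1.66-fold). Ifng +17.9 kb lost its call without LI replicate 2, and Il12rb2 +37.5 kb without LI replicate 2 or pancreas replicate 1. This contrast averages LI and SI, which differed from each other at 4 of the 22 regions. A region called as higher was thus not always high in both. Both SI libraries lay below those of lung and pancreas at Ifng +17.9 kb, and below those of lung at Il17a +9.8 kb. They overlapped with lung and pancreas at Il17f +24.3 kb and lay below pancreas at Il12rb2 +37.5 kb.

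**Figure D4:**
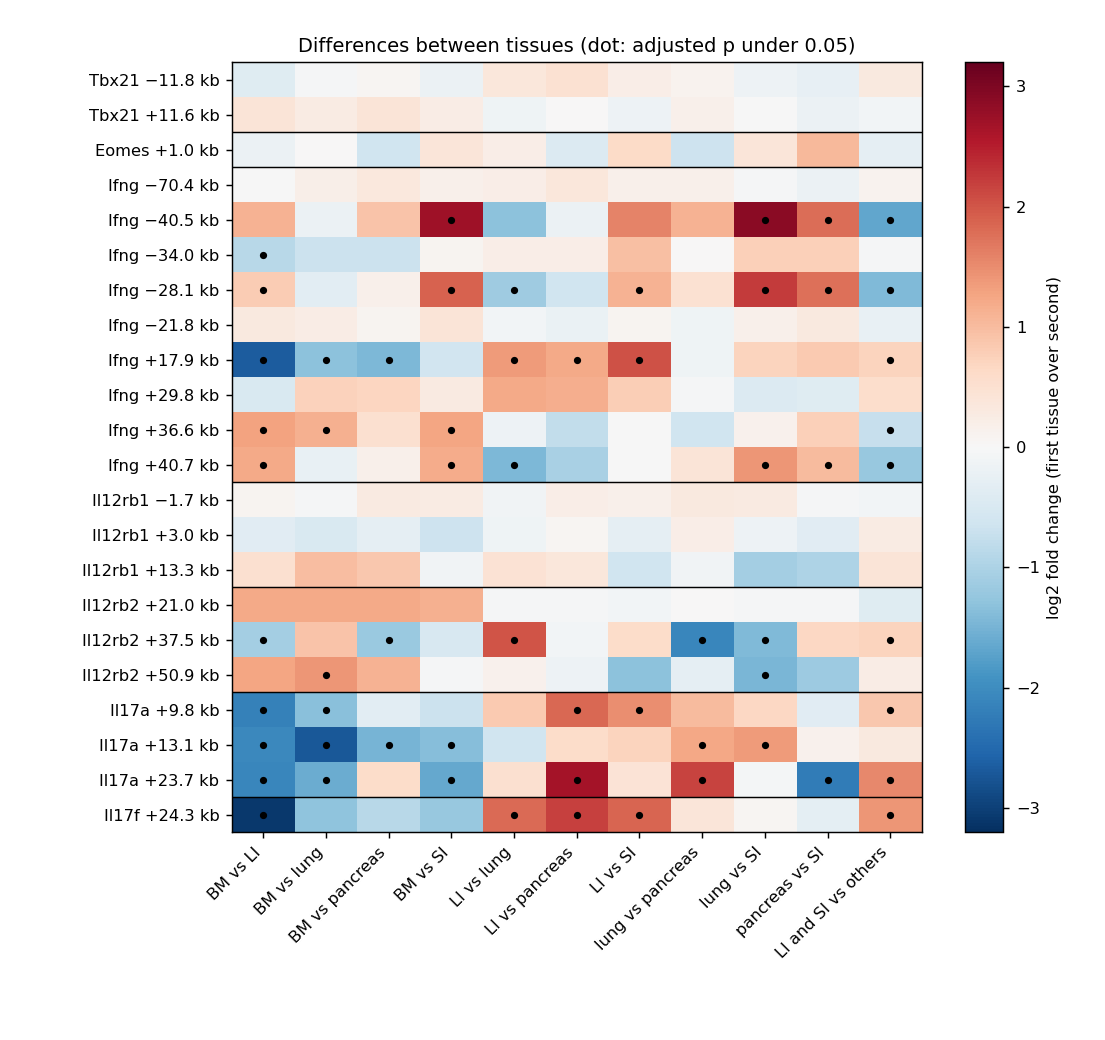
Log2 fold changes of the 22 regions between tissues, as colours, in 10 pairs of tissues and for LI and SI against the other 3 tissues. Red is higher in the tissue named before "vs", and a dot marks an adjusted p under 0.05 (edgeR). The column of BM against LI is dark blue at the 4 regions of Il17a and Il17f, and the columns of BM, lung, and pancreas against SI are red at Ifng −40.5 and −28.1 kb.

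Longer lists of genes linked to each lineage gave the wider setting, although some of their genes also mark ILC2s of single tissues. The ILC3 list held Ahr, Nrp1, and Il6ra, which the paper reports as features of intestinal, lung, and BM ILC2s, respectively. The ILC2 list held Gata3 and Il13, which the paper counts among genes shared by LI and SI ILC2s. It also held genes of the gates (Il1rl1, Il2ra, Il7r, Klrg1, and Thy1), and the SI gate used KLRG1 in place of ST2 and CD25. The part of the gates in the counts below was not tested. Among the regions of 22 ILC1 genes, 56 of 103 (54.4%) were called by the F test (background 44.2%), with 28 (27.2%) higher and 12 (11.7%) lower in LI and SI together (background 14.9% and 8.51%). Among those of 20 ILC3 genes, 96 of 163 (58.9%) were called, with 54 (33.1%) higher and 10 (6.13%) lower in LI and SI. Among those of 21 ILC2 genes, 140 of 241 (58.1%) were called, with 26 (10.8%) higher and 58 (24.1%) lower. The median log2 difference of LI and SI from the other tissues was 0.08 for the ILC1 list, 0.21 for the ILC3 list, and −0.14 for the ILC2 list, beside 0.17 for the 22 regions and 0 for all regions. These are counts and medians over regions that share genes and libraries, and no test was made of the lists.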

How the data were processed

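The authors mapped ATAC-seq reads to mm10 with Bowtie2 2.2.9, kept uniquely mapped reads, called peaks with MACS2 2.1.1, kept peaks found in both replicates, and merged those of the 5 tissues with HOMER. The deposited values are raw read counts of the merged regions, with no normalization. Their text names no removal of duplicate reads and no shift of reads for the transposase. Groups and replicate numbers came from the sample titles, and 10 of 10 count columns were matched to them. Whether replicates were separate sorts is not stated beyond the term biological duplicates.

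The 49981 regions with any count were fitted with edgeR 4.0.16 in R 4.3.3 (TMM, glmQLFit, glmQLFTest) on all 10 libraries, on tissue alone, by an F test over 5 tissues and by contrasts. Each F test or contrast was adjusted by Benjamini-Hochberg over all regions at 0.05. The same test was run on sums of counts per gene (22216). Levels are TMM-scaled CPM per kb. The fit was tested on simulated data. Alternatives were DESeq2 1.42.0, other scalings, a stricter filter, thresholds, a replicate block, each library left out, protein-coding TSS only, and, chosen after seeing the data, removal of a GC trend. Region classes and sequences used RefSeq on GRCm38.p6. Promoter, most accessible, and smallest-p regions of each gene were described in full, and the remaining regions more briefly. The 9 genes, the gene and marker lists, and the tests were chosen with earlier results of these data known. Same-numbered replicates of different tissues correlated between −0.218 and 0.196 in their deviations from tissue means, so the numbers were not taken to pair libraries. One gene of the ILC1 list (Zfp683) had no annotated transcript, so distances to a TSS covered 21 of 22 genes. The values of 1 marker gene and 1 motif are not reported here.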

Additional observations from a re-analysis of the deposited data

How the results depend on the processing

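The number of regions called by the F test was 12 under the replicate block, and it ranged from 10 to 13 as each library was left out. In those fits the lone library of a tissue was assumed to vary like the others. Regions called ranged from 6 to 11 for BM against LI, 1 to 6 for BM against lung, 1 to 3 for BM against pancreas, 4 to 9 for BM against SI, 1 to 7 for LI against lung, 1 to 5 for LI against pancreas, 1 to 5 for LI against SI, 1 to 4 for lung against pancreas, 4 to 6 for lung against SI, 2 to 4 for pancreas against SI, and 7 to 10 for LI and SI against the rest, and gene sums called from 3 to 4. The lowest values came without BM replicate 1 (BM against lung), either BM replicate (BM against pancreas), BM replicate 2 or LI replicate 2 (BM against LI), lung replicate 2 (LI against lung), LI replicate 2 (LI against SI), LI replicate 2 or either pancreas replicate (LI against pancreas), lung replicate 2 or pancreas replicate 2 (lung against pancreas), and SI replicate 1 (pancreas against SI). The threshold of the study was an unadjusted p under 0.05. With it, calls among the 22 regions numbered 13 for BM against LI, 11 for BM against lung, 6 for BM against pancreas, and 9 for BM against SI. They numbered 8 for LI against lung, 8 for LI against pancreas, 7 for LI against SI, and 7 for lung against pancreas. Against SI they numbered 10 for lung and 11 for pancreas. The share of all regions called at this threshold was not counted, so these numbers have no background. With nearest TSS of protein-coding genes only, 5 of 32 regions were called for BM against pancreas (background 9.89% higher and 14.3% lower in BM). The Ifng sum was not called under this rule (adjusted p = 0.194, edgeR). Of the 60 calls in pairs of tissues and in LI and SI together, 52 held in all settings that kept 10 libraries, 27 in all 17 settings, and none turned its direction. The replicate block lost 1 call, Ifng −40.5 kb in pancreas against SI. Scaling by library size alone moved the median of all regions by over 0.1 log2 units in 6 of the 10 pairs, by at most 0.25 (lung against pancreas) upward and −0.25 (LI against lung) downward. With 2 libraries per tissue and counts as low as 7 in a region, small differences may have been missed, and no detection limit was computed for these regions.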

Other observations

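When the nearest TSS was taken over protein-coding genes only, 10 further regions fell to these loci, 5 at Ifng, 2 at Eomes, 2 at Tbx21, and 1 at Il22. The Il22 region (chr10:118194997-118195595), 9.3 kb upstream of the TSS of this ILC3 cytokine, measured 22.0 and 20.7 in lung, 28.7 and 35.6 in LI, 12.8 and 15.1 in pancreas, 14.2 and 13 in SI, and 8.10 and 8.46 in BM (adjusted p = 9.35e-05, edgeR). LI was highest, lung next, pancreas and SI overlapped, and BM was lowest, by −1.96 ± 0.25 SE log2 units against LI (adjusted p = 3.65e-05, edgeR). This region was also below LI in BM, as were the 4 regions between Il17a and Il17f.

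A pair of distal regions beyond Ifng, nearest to the noncoding gene Ifngas1, passed the test as well. Ifng +158.5 kb measured 13.6 and 10.7 in lung, below all others, against 36.8 and 47.7 in BM, 34.1 and 32.4 in LI, 22.0 and 29.9 in pancreas, and 30.8 and 31.8 in SI (adjusted p = 0.000258, edgeR). Ifng +192.6 kb measured 26.2 and 25.6 in SI, 17.0 and 19.6 in LI, 10.7 and 14.1 in BM, 8.01 and 1.91 in lung, and 6.69 and 4.99 in pancreas (adjusted p = 0.0011, edgeR). LI and SI were higher there than the other 3 tissues without overlap (log2 1.62 ± 0.27 SE, adjusted p = 0.000382), whereas they were lower at Ifng −28.1 kb. The other 7 regions did not pass the F test.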
